A study of Sus scrofa with 8 samples.

Results

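MYH3+ MYMK+ differentiated myocytes were the barcodes in which at least 2 UMIs of *MYH3* and at least 1 UMI of *MYMK* were counted and none of *MYBPC3*, a cardiac myosin-binding protein. A UMI is 1 RNA molecule counted in a barcode. A barcode stands for a droplet that was called a cell. Of the 82394 barcodes of all 8 libraries with at least 200 genes, at most 30000 UMIs and at most 10% of UMIs on 13 mitochondrial genes, 599 met this rule. The rule used measured values, so the levels of *MYH3*, *MYMK* and *MYBPC3* and every comparison of these cells with others are given as a description, without a test.

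The libraries were made from pig embryos by droplet-based single-cell RNA sequencing, 1 for each of 4 stages in Tibetan pigs (ZZ) and in Duroc-Tibetan crosses (DZ). They are named after the embryonic day and the breed, such as E18-ZZ. Where a pair of values is given for a stage, the ZZ library comes first and the DZ library second. Somites were dissected at E16, E18 and E21 and the myotome, the compartment from which trunk muscle develops, at E28. None of the embryos was treated or carried an engineered allele. Each library pooled 5 embryos of a single sow, so stage, tissue and sow cannot be told apart at E28, and breed and sow cannot be told apart within a stage. The breeds served as the samples of a stage (n = 2), and p-values measure only the spread between these pools.

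Skeletal muscle forms when progenitors of the somite are committed by the myogenic regulatory factors MYF5, MYOD1 and MYF6, leave the cell cycle, and become myocytes under MYOG and the MEF2 factors. Myocytes then fuse into myotubes through the membrane protein myomaker, which *MYMK* encodes, and assemble sarcomeres in which myosin thick filaments slide along actin thin filaments that are switched by troponin. *MYH3* encodes the embryonic heavy chain of skeletal myosin and is among the early sarcomeric genes of the myotome.

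The libraries held 47651997 to 66696834 UMIs. Members had a median of 6235 to 10713 UMIs per library, against 3464 to 5956 in the other barcodes of the same 6 libraries. Among the 81555 barcode sequences, 831 passed in more than 1 library, 10 members carried such a sequence, and 0 sequences were members in 2 libraries. Free RNA was checked in endothelial barcodes, of which 12.9% held a *MYH3* UMI in E28-DZ (8 of 62) and 0 met the rule in any library. A *MYMK* UMI was held by 4.41% of them in E28-ZZ and 4.84% in E28-DZ. Libraries with members had 40 to 215 endothelial barcodes, too few to show a share as low as that of members. Between 5.08% and 13.5% of members in a library stood among the barcodes with the highest doublet scores, which were 8.15% to 9.73% of all barcodes there.

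Myocytes were not detected at E16 and made up a larger part of the libraries at E21 and E28 than at E18. There were 0 among 6297 barcodes of E16-ZZ, which allows a share of up to 0.0476%, and 0 among 10603 of E16-DZ, which allows up to 0.0283%. At E18 they were 33 of 10301 barcodes in E18-ZZ (0.320%, exact 95% binomial interval 0.221% to 0.450%) and 59 of 10347 in E18-DZ (0.570%, 0.434% to 0.735%). At E21 there were 104 among 11610 barcodes of ZZ (0.896%) and 98 among 10194 of DZ (0.961%). The E28 libraries held 120 among 10869 (ZZ, 1.10%) and 185 among 12173 (DZ, 1.52%, 1.31% to 1.75%). The late libraries did not overlap with the early ones. The mitochondrial limit removed 39.2% and 9.15% of the E16 barcodes, 7.34% and 3.30% of those of E18, 3.05% and 8.58% of those of E21 and 1.83% and 1.05% of those of E28, and at a limit of 5% the late libraries still did not overlap with the early ones. Intervals and limits cover counting error only.

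The share was 1.12% ± 0.280 (SD, n = 4) at E21 and E28 and 0.223% ± 0.277 (n = 4) at E16 and E18, a difference of 0.898 percentage points (exact two-sided permutation test, p = 0.0286, the smallest that 70 splits allow). Within the 6 libraries of Cell Ranger 3.0.2, which leaves out E16, late and early libraries differed by 0.675 percentage points (p = 0.1333 in the exact permutation test, the smallest that its 15 splits allow). With any 1 of the 8 libraries left out it was 0.764 to 1.01 percentage points, and the exact permutation test then gave p = 0.0571, the smallest possible. The stage means were 0.445% ± 0.177 at E18, 0.929% ± 0.0464 at E21 and 1.31% ± 0.294 at E28 (SD, n = 2), and neighbouring stages, with 2 libraries each, cannot go below p = 0.333 in the exact permutation test. E21 was 0.483 percentage points above E18 and E28 was 0.383 above E21. The step from E21 to E28 depended on the limits. With at least 3 *MYH3* and 2 *MYMK* UMIs the shares were 0.792% and 0.844% at E21 against 0.810% and 1.25% in the E28 libraries, and with at most 5% of mitochondrial UMIs they were 1.13% and 1.35% against 1.23% and 1.38%, so the stages overlapped in both settings. At the 5% limit E18-ZZ kept 1 member among 4595 barcodes (0.0218%) and E18-DZ 19 among 5600 (0.339%).

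**Figure D1:**
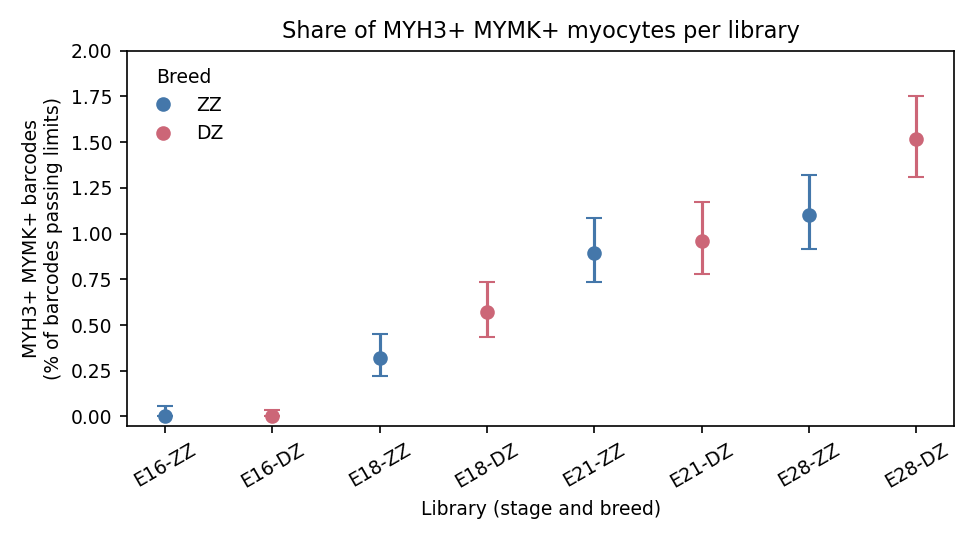
Share of MYH3+ MYMK+ barcodes (y axis, percent of barcodes passing the limits) in each of the 8 libraries (x axis), with the exact 95% binomial interval, coloured by breed. Both E16 libraries are at 0, both E18 libraries are below 0.6%, and the E28-DZ library has the highest share with 1.52%.

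The rule's genes were far above their limits in most members. The median *MYH3* count was 9 and 7 in the E18 libraries, 31.5 and 20.5 in those of E21 and 8 and 28 in those of E28, and the highest single count was 302. Of the 599 members, 361 held at least 10 *MYH3* UMIs, 81 held exactly 2 (27 of them in E28-ZZ and 27 in E28-DZ), 41 held exactly 1 *MYMK* UMI and 13 were at both limits. The E28-ZZ library thus combined a low median with a maximum of 259.

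Barcodes with 2 *MYH3* UMIs held less of the sarcomere genes than all members and more than the barcodes that lacked an *MYH3* or *MYMK* UMI to meet the rule. CPM are UMIs of a gene per 1000000 UMIs summed over the barcodes of a group. These groups pool the libraries and differ in their mix of stages, whose part in the orders below was not tested. E28-ZZ and E28-DZ gave 27 and 27 of the 81 members with 2 *MYH3* UMIs. They gave 33 and 108 of the 190 barcodes with *MYH3* but no *MYMK* UMI. In CPM, the cardiac-type troponin T *TNNT2* was at 1702 in all members, 447 in the 81 members with 2 *MYH3* UMIs, 126 in the 290 barcodes with 1 *MYH3* UMI and *MYMK*, and 35.9 in the 2661 with *MYMK* alone. The Z-disc protein calsarcin-1, *MYOZ2*, followed the same order with 830, 127, 45.1 and 6.97 CPM. The 190 barcodes with *MYH3* but no *MYMK* UMI held 172 CPM of *TNNT2* and 628 CPM of the collagen gene *COL1A1*, against 69.6 CPM of *COL1A1* in members and 225 CPM in members with 2 *MYH3* UMIs. *MYOG*, which drives terminal differentiation, had another order, with 198 CPM in all members, 364 in those with 2 *MYH3* UMIs, 35.9 in the 41 with 1 *MYMK* UMI, 219 in barcodes with 1 *MYH3* UMI and *MYMK*, and 125 in those with *MYMK* alone. The 2 barcodes left out for a *MYBPC3* UMI alone held 1422 CPM of *TNNT2* and 976 CPM of *MYOZ2*, near the level of all members. *COL1A1* was at 33.7 CPM in the 340 members with at least 10 *MYH3* and 3 *MYMK* UMIs.

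The markers given for these cells were present in all 6 libraries with members. *TNNT2* was at 1322 and 1570 CPM at E18, 1423 and 1448 CPM at E21 and 1478 and 2192 CPM at E28, and at 3.93 to 60.6 CPM in the other barcodes of these libraries. *MYOZ2* was at 73.6 and 74.5 CPM at E18, then at 826 and 605 CPM at E21 and 917 and 1199 CPM at E28, with 0.07 to 6.96 CPM in the other barcodes. *TNNT2* was therefore even over the stages, while *MYOZ2* separated E18 from the later libraries. The label held at every stage with members, although at E18 the *MYOZ2* level rested on 24 and 27 UMIs. *TNNT2* did not set members apart from cardiac cells, taken as barcodes with at least 2 *MYBPC3* UMIs and no *MYMK* UMI. At E18 those cells (40 and 20 barcodes) held 8660 and 4018 CPM of *TNNT2*. They held 10.3 and 5.38 CPM of *MYOZ2* and 0 CPM of *MYOG*. The light chain *MYL4* was at 7308 and 5508 CPM in them, against 451 and 486 CPM in members.

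Leaving out the genes of the rule, the 10 genes at 50 CPM or more that lay furthest above all other barcodes were sarcomeric apart from 1 gene without a symbol (ENSSSCG00000036052). They were led by the fast-fibre myosin light chain *MYLPF* (median log2 ratio over 6 libraries 8.46), the fast troponin C *TNNC2* (8.45), the myosin-binding protein *MYBPH* (8.23), skeletal actin *ACTA1* (7.98) and *MYOZ2* (7.59), followed by *TNNC1*, *MYL1*, *MYL4* and *TNNT2*. *MYLPF* was at 6519 and 5706 CPM at E18, and between 14831 and 18688 in the 4 later libraries. Macrophage and endothelial markers were low, while the epithelial, neural and fibroblast lists are given beside the results they move with. The macrophage list summed to 0 to 3.07 CPM in members and the endothelial list to 9.34 to 21.9 CPM, and the heart transcription factor *NKX2-5* had at most 1 UMI in a library. The cardiac list summed to 120 to 453 CPM with 4 to 7 of its 8 measured genes at 0, and *SMPX*, a small protein of striated muscle that skeletal muscle uses too, gave 98.2 to 452 CPM of it. The smooth-muscle list summed to 393 to 1197 CPM, highest at E18, and the erythroid list to 862 CPM in E18-ZZ, 877 CPM in E28-DZ and 100 to 190 CPM in the others.

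Upstream of the genes that define these cells, promoter sequences were read to show the binding motifs of muscle regulators. The E-box CANNTG is bound by MYOD1 and MYOG, the MEF2 motif, CTA and TAG around 4 bases of any kind, by MEF2 factors and the MCAT motif CATTCC by TEAD factors. Sequences are the 250 bases before the RefSeq gene start on Sscrofa11.1, printed along the gene's strand, with E-box and MEF2 matches of either strand in capitals. They show the fusion gene of the rule (*MYMK*, chr1:273111722-273111971, minus strand) and the marker *MYOZ2* (chr8:104609368-104609617, minus strand).
MYMK: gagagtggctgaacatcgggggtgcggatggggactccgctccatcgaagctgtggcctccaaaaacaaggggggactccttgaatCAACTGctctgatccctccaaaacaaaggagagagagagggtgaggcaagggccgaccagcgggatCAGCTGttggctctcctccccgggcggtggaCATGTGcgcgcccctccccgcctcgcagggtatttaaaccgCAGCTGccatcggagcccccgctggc
MYOZ2: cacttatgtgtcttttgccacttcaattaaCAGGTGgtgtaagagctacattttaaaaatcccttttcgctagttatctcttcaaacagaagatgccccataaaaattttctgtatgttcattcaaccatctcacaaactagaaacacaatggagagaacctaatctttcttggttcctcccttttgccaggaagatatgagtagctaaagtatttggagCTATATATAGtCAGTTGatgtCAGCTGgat

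The *MYMK* window held 4 E-boxes, starting 164, 98, 67 and 26 bases before the gene start. The *MYOZ2* window held 3 E-boxes, at 220, 19 and 9 bases, and a MEF2 match at 30 bases, so that 3 of its 4 matches lay within the last 30 bases. The window of the marker *TNNT2* held 0 matches of each motif, and *MYH3* was not matched in the promoter table. Of 11 leading genes 9 were matched in the promoter table. An E-box was found in 5 of these 9 (55.6%) and in 61.9% of all 19558 promoters of the same length, a MEF2 match in 2 (22.2%) and in 2.32%, and an MCAT match in 2 (22.2%) and in 10.3%. The E-box was thus no more frequent in the leading genes than in promoters at large. A match of these letters is a description and not a binding site.

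Beside committed cells, which held *MYF5* or *MYOD1* without *MYMK* and with at most 1 *MYH3* UMI (4504 barcodes), the myocytes held more of sarcomere and excitation genes and less of the cell cycle. All 12 measured myosin and thick-filament genes were higher in 6 of 6 libraries, as were 15 of 17 thin-filament genes, 21 of 22 Z-disc genes, 10 of 14 genes of excitation-contraction coupling and 11 of 14 of the dystrophin complex. All 20 measured genes of mitosis and DNA replication were lower in 6 of 6 libraries, although that list still summed to 369 to 1147 CPM in members. Over all 9411 genes compared, 10.3% were higher and 37.1% lower in every library.

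*CDKN1A*, the CDK inhibitor p21 that blocks cell cycle entry, was at 239 and 284 CPM at E18, 360 and 408 CPM at E21 and 427 and 453 CPM at E28, against 1.47 to 5.26 CPM in committed cells. *TOP2A*, a topoisomerase of dividing cells, was at 24.0 to 141 CPM in myocytes and at 570 to 704 CPM in committed cells. *MYF5* was still detected. It was at 112 to 230 CPM in myocytes and 196 to 808 CPM in committed cells, which were chosen on it, and 9.40 to 194 CPM in all other barcodes, highest in E28-DZ. The progenitor factor *PAX3* was at 5.74 to 22.1 CPM against 40.3 to 141 CPM. Because the rule chose on muscle genes, none of these differences was tested.

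The question of how the myocytes changed with stage was answered with UMIs summed over the members of each library, in edgeR's quasi-likelihood test with stage and breed as terms. The spread it uses is what these terms leave over all libraries with members, moderated by the spread of all genes tested. A small p therefore does not rest on a gene's own spread between the pools of a stage alone. Over 7491 genes tested, 868 (11.6%) passed an adjusted p of 0.05 between E21 and E18, 553 (7.38%) higher and 315 (4.21%) lower at E21. With library totals in place of TMM scaling, which shifted the median log2 fold change of all genes to -0.191, the split was 369 higher and 521 lower. The number of calls rested on each of the 4 libraries compared. It fell to 346 without E18-ZZ, 290 without E18-DZ, 540 without E21-ZZ and 403 without E21-DZ.

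E21 myocytes held more of the sarcomere than E18 myocytes, above all of the thick filament. The median mitochondrial share of members was 6.20% and 5.57% in the E18 libraries, 4.49% and 4.42% in those of E21 and 4.37% and 3.93% in those of E28, so it was lower at E21 than at E18 without overlap, and its part in the gene differences was not tested. Of 12 myosin and thick-filament genes tested 9 rose and 0 fell (median log2 fold change 1.88, all genes 0.034). *MYH8*, the perinatal myosin heavy chain, was at 12.3 and 2.76 CPM at E18 (4 and 1 UMIs), 849 and 561 CPM at E21 and 1420 and 2424 CPM at E28. It was near absent in both E18 pools and rose by 6.79 ± 0.41 on the log2 scale (SE, edgeR adjusted p = 2.205e-16). The ratio of the pooled UMIs was 96.6 (exact 95% interval 41.3 to 298). Each SE is the size of the log2 fold change divided by the square root of the test's F value. Where few UMIs were counted, as for *MYH8* at E18, it can be smaller than the counting error.

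*MYL2*, the slow and ventricular regulatory light chain, was at 27.6 and 66.2 CPM at E18 and 1172 and 1426 CPM at E21, and rose by 5.03 ± 0.27 (adjusted p = 1.154e-17). *MYBPC1*, the slow myosin-binding protein C, was at 6.14 and 13.8 CPM in the E18 libraries and at 553 and 348 CPM in the E21 libraries (5.67 ± 0.39). *MYL1*, the essential light chain of fast fibres, stood at 580 and 613 CPM and then at 3200 and 3012 CPM (2.61 ± 0.20). These genes were among those with the smallest p of their list, so the lack of overlap between their E18 and E21 levels is a description. All of them kept the call in each of the 15 settings run. Myosin heavy chains are near-identical paralogs, so reads may be split between them.

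Among 16 thin-filament genes 9 rose and 0 fell (median 0.855), and 5 rose without E18-DZ. *ACTC1*, the actin first used in developing skeletal muscle, was at 8431 and 8592 CPM at E18 and 28972 and 25185 CPM at E21, and rose by 1.89 ± 0.18 (adjusted p = 6.341e-11). The fast troponin I *TNNI2* was at 61.4 and 85.5 CPM at E18 and 262 and 344 CPM at E21 (2.28 ± 0.25), and the slow troponin T *TNNT1* at 3577 and 4100 CPM and then 9406 and 9759 CPM (1.55 ± 0.18). The thin filament was not uniformly higher, since *TNNT2* (0.22 ± 0.19, adjusted p = 0.524), the slow troponin I *TNNI1* (0.26 ± 0.18) and *ACTA1* (-0.47 ± 0.18) did not pass. *TNNI1* lay between 4098 and 5193 CPM in all 6 libraries.

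Of 22 Z-disc and myofibril assembly genes 12 rose and 1 fell (median 1.01), and the rises were 6 without E18-ZZ and 7 without E18-DZ. *MYOZ2*, given above, rose by 3.49 ± 0.25 (adjusted p = 6.921e-14). *MYOT*, the Z-disc protein myotilin, was at 21.5 and 11.0 CPM at E18 and at 416 and 354 CPM at E21 (4.80 ± 0.34), and *ACTN2*, alpha-actinin of the Z-disc, went from 221 and 237 CPM to 1180 and 949 CPM (2.44 ± 0.21). These 3 genes had the smallest p of their list, so the lack of overlap between their E18 and E21 levels is a description.

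The machinery that couples the membrane to contraction moved the same way, with 10 of 14 genes higher and 0 lower (median 1.45). The 10 became 5 without E18-ZZ or without E18-DZ and 3 with members thinned to 3000 UMIs. *CACNA1S*, the voltage sensor of the muscle calcium channel, was at 18.4 and 8.28 CPM at E18 and 112 and 63.6 CPM at E21 (2.93 ± 0.43). *SRL*, the sarcoplasmic reticulum protein sarcalumenin, was at 107 and 77.3 CPM and then at 328 and 299 CPM (1.99 ± 0.26). At the neuromuscular synapse 3 of 6 genes rose, among them acetylcholinesterase *ACHE*, which went from 21.5 and 2.76 CPM to 181 and 114 CPM, and the receptor kinase *MUSK*, which went from 30.7 and 46.9 CPM to 169 and 128 CPM. The acetylcholine receptor gene *CHRNA1* was already at 239 and 345 CPM at E18 and at 494 and 392 CPM at E21. Its call (0.85 ± 0.22, adjusted p = 0.00763) was lost without E18-ZZ, E18-DZ or E21-ZZ, with DESeq2, without TMM scaling and with thinned members.

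**Figure D2:**
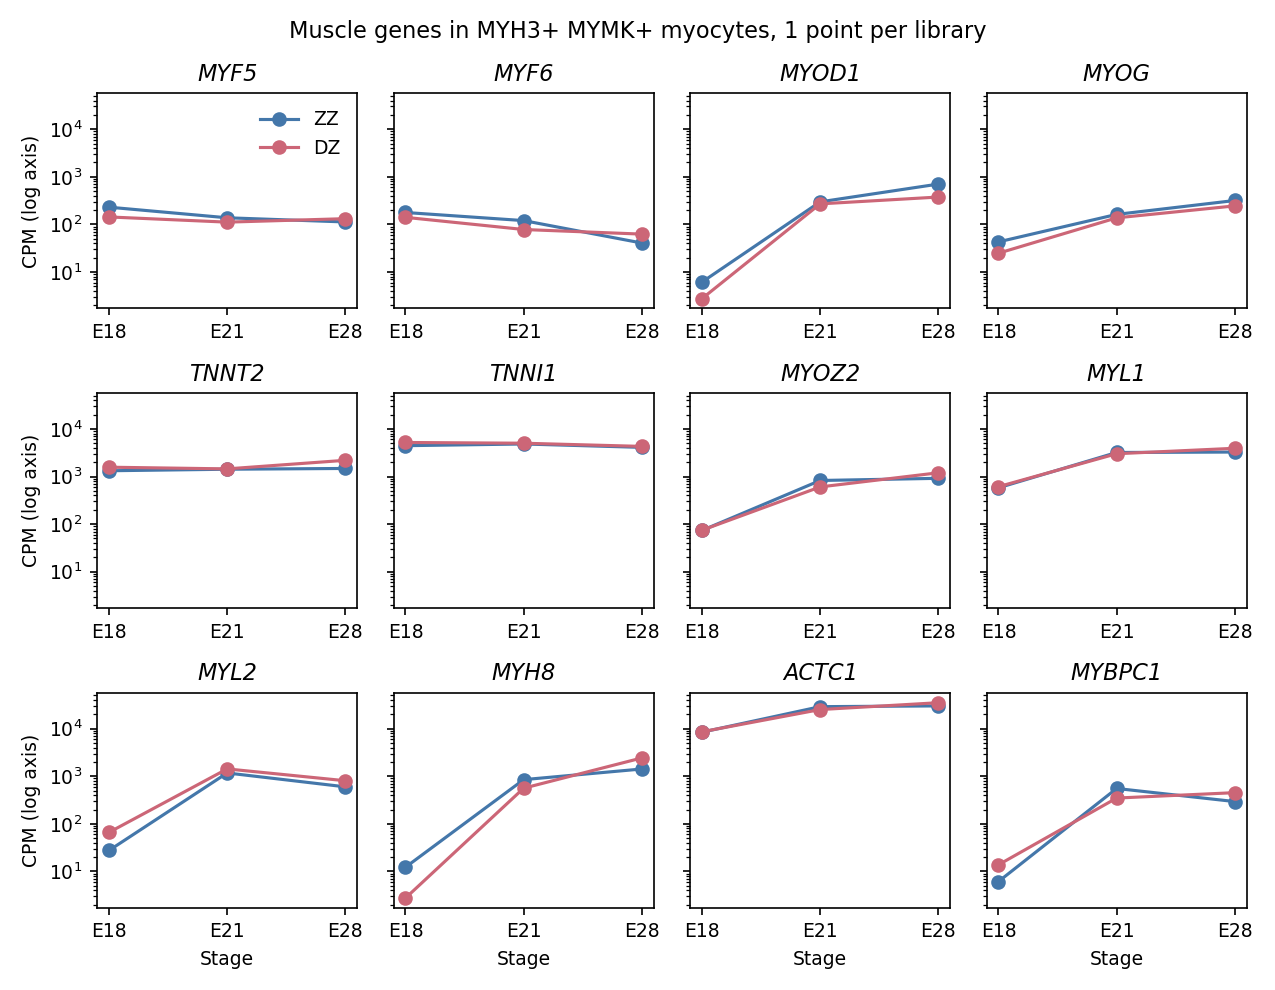
Level of 12 muscle genes in the myocytes (y axis, CPM, log axis) at E18, E21 and E28 (x axis), 1 point per library, with lines joining the libraries of a breed. *MYOD1*, *MYH8*, *MYL2* and *MYBPC1* are below 70 CPM at E18 and above 250 CPM at both later stages in both breeds, while *TNNT2* and *TNNI1* stay within a narrow range.

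The regulators of the lineage did not move together. Of 24 myogenic transcription factors tested 9 rose and 1 fell (median 0.37). *VGLL2*, 1 of those that rose, had 0 UMIs in both E18 libraries. It passed the filter on low counts through the later libraries alone, so the count of rises is no test of the list. *MYOD1* was at 6.14 and 2.76 CPM at E18 (2 and 1 UMIs), 298 and 270 CPM at E21 and 703 and 376 CPM at E28. It rose at E21 (edgeR adjusted p = 4.563e-14), and the 3 UMIs at E18 put the ratio of the pooled UMIs at 65.1 (exact 95% interval 22.1 to 317, counting error only). *MYOG* was at 43.0 and 24.8 CPM at E18, 162 and 137 CPM at E21 and 318 and 245 CPM at E28, and rose by 2.38 ± 0.31 (adjusted p = 1.731e-07). *MYF5* was at 230 and 143.5 CPM at E18 and at 112 to 138 CPM in the later libraries (-0.35 ± 0.24, adjusted p = 0.424). *MYF6*, also known as MRF4, was at 178 and 141 CPM at E18 and at 120 and 78.1 CPM at E21 (-0.47 ± 0.26, adjusted p = 0.280). A difference between E18 and E21 was thus not detectable for *MYF5* or *MYF6*. *MEF2C*, a MEF2 factor of sarcomeric promoters, rose from 696 and 930 CPM to 1255 and 1520 CPM (1.01 ± 0.19, adjusted p = 1.80e-04), a call that was lost without E18-ZZ or without E18-DZ.

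A group of genes was listed at 0 in both E18 libraries. *MSTN*, the negative regulator of muscle growth myostatin, had 0 UMIs in both E18 libraries, 248 and 208 CPM at E21 and 144 and 154.9 CPM at E28. Against a floor of 3 UMIs per library it was at least 26.0-fold higher at E21. *VGLL2*, a cofactor of TEAD factors in skeletal muscle, had 0 UMIs at E18, 133.1 and 112 CPM at E21 and 335 and 325 CPM at E28, and was at least 14.0-fold higher at E21. *PRSS12* (at least 12.3-fold) and the Wnt inhibitor *KREMEN2* (at least 6.04-fold) had the same pattern, as did *STMN2*, a neuronal gene (0 UMIs at E18, 204 and 88.2 CPM at E21, at least 16.7-fold). Only 3 of the 8 genes of the neural list were tested, and *STMN2* passed the filter on low counts through the later libraries alone. All 3 rose at E21, but for that reason the count of rises is no test of the list. The neural list summed to 36.8 and 11.0 CPM in E18 members and 402 and 181 CPM in E21 members. In the other barcodes that list went from 114 and 250 CPM to 2984 and 1105 CPM, and the part of neuronal RNA in the rise was not tested. Follistatin, *FST*, which binds myostatin, rose from 12.3 and 8.28 CPM to 74.7 and 60.3 CPM (2.94 ± 0.45). The E18 members were few, so that 1 UMI weighed 3.07 CPM in E18-ZZ and 2.76 CPM in E18-DZ.

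Genes of energy metabolism went both ways, with 3 of 19 higher and 6 lower at E21 (median -0.14). The 6 falls became 1 without E18-ZZ or without E18-DZ, 4 without E21-ZZ and 3 without E21-DZ. *PGAM2*, the muscle phosphoglycerate mutase, was at 153 and 301 CPM at E18 and at 2043 and 1916 CPM at E21 (3.37 ± 0.23), and *COX6A2*, the heart and muscle subunit of cytochrome oxidase, went from 55.2 and 71.7 CPM to 326 and 436 CPM (2.81 ± 0.27). The glycolytic enzymes *TPI1* (-1.19 ± 0.19), *PKM* (-0.93 ± 0.19) and *PFKP* (-4.37 ± 0.40) fell, and the call of *PKM* was lost without E18-ZZ or without E18-DZ. *PFKP*, the platelet-type phosphofructokinase, was at 107 and 177 CPM at E18 and at 4.67 and 6.70 CPM at E21. *ENO3*, the muscle enolase, lay between 180 and 200 CPM in all 6 libraries and did not pass the test.

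Several named genes outside the muscle lists were lower at E21 than at E18. *CRABP1*, which binds retinoic acid, was at 1150 and 1300 CPM at E18 and 158 and 78.1 CPM at E21 and fell by 3.35 ± 0.33 (adjusted p = 3.091e-10). *HAPLN1*, a hyaluronan link protein, fell from 209 and 141 CPM to 2.34 and 4.46 CPM, and *PRTG*, protogenin of the early embryo, from 123 and 154.5 CPM to 12.8 and 6.70 CPM. *CRABP1* in the other barcodes of these libraries was at 576 and 1192 CPM at E18 and at 1827 and 1161 CPM at E21. The keratin *KRT8* fell by 5.73 ± 0.34, from 399 and 326 CPM to 7.01 and 4.46 CPM, and in the other barcodes it stood at 1547 and 1315 CPM at E18 and at 76.7 and 66.4 CPM at E21. The epithelial list summed to 564 and 469 CPM in E18 members, the part of that RNA in the result was not tested, and 2 of its 6 measured genes were at 0 in each E18 library.

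Immediate-early genes, which respond within minutes to a stimulus and also to tissue dissociation, were higher at E21 in 8 of 12 genes and lower in 0 (median 1.49). The 8 became 4 without E18-DZ or without E21-ZZ, 5 without E21-DZ and 3 with thinned members. *FOS* was at 163 and 223 CPM at E18 and 982 and 840 CPM at E21 (2.52 ± 0.26, adjusted p = 6.779e-10). In the other barcodes *FOS* was at 115 and 242 CPM at E18 and at 338 and 515 CPM at E21, so the other barcodes moved too, and the part of what the whole library shared was not tested. Of 39 listed HOX genes, which mark position along the body axis, 16 were tested, and 8 rose and 3 fell. *HOXB7* and *HOXA9* had 0 UMIs in both E18 libraries and passed the filter on low counts through the later libraries alone. The count of rises is therefore no test of the HOX list. Without E18-DZ 4 rose and 0 fell, without E21-DZ 5 and 0, without E18-ZZ 6 and 0, and with thinned members 2 and 0. *HOXA7* and *HOXC8*, genes of the trunk, were at 0 to 15.3 CPM at E18 and at 30.1 to 64.2 CPM at E21. In the other barcodes *HOXA7* was at 38.5 and 10.9 CPM at E18 and at 139.8 and 127 CPM at E21.

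Between E21 somites and E28 myotome 261 of 7491 genes (3.48%) passed, 113 (1.51%) higher and 148 (1.98%) lower at E28. Without TMM scaling, which shifted the median log2 fold change of all genes to 0.128, the split was 105 higher and 74 lower. The number depended on single libraries and was 153 without E21-ZZ, 39 without E21-DZ and 140 without E28-DZ. Most sarcomere genes did not pass here. Of 12 myosin genes 1 rose and 2 fell, of 16 thin-filament genes 2 rose and 2 fell, and of 22 Z-disc genes 0 rose and 4 fell. The 4 falls became 1 without E18-ZZ, E18-DZ or E21-DZ and 2 without E21-ZZ or E28-ZZ.

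Within the sarcomere the fast troponin genes *TNNI2* and *TNNT3* rose but not *TNNC2* (0.13 ± 0.18, edgeR adjusted p = 0.870), and *TNNT1*, *MYL2* and *MYH7* fell. *TNNI2* was at 262 and 344 CPM at E21 and 604 and 999 CPM at E28, so the stages did not overlap, and it rose by 1.25 ± 0.20 (edgeR adjusted p = 5.537e-05) with the call kept in all 17 settings. The fast troponin T *TNNT3* was at 228, 215, 312 and 650 CPM in the same order (0.91 ± 0.22, adjusted p = 0.00881). Its call was kept in 7 of 17 settings. Among the losses were those without E18-ZZ, E18-DZ, E21-DZ or E28-DZ, with DESeq2 and with thinned members. *TNNT1* fell by 0.90 ± 0.18, from 9406 and 9759 CPM to 5816 and 5412 CPM. That call was kept in 11 of 17 settings and lost, among others, without E18-ZZ, E18-DZ, E21-DZ or E28-DZ. *MYL2* fell by 1.03 ± 0.19, to 599 and 805 CPM, a call lost without E21-DZ. *MYH8* rose by 1.31 ± 0.22 (adjusted p = 1.423e-04), a call lost without E21-DZ or E28-DZ and with DESeq2.

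The gene row that the files name *MYH7*, the slow and cardiac beta heavy chain, was at 795 and 545 CPM at E21 and 174 and 301 CPM at E28. It fell by 1.64 ± 0.22 (adjusted p = 3.036e-06) and kept the call in every setting. The reference table gives the identifier of that row to *MYH6*, its near-identical neighbour, so which of the pair was counted is uncertain. The Z-disc adaptor *PDLIM3* fell by 1.08 ± 0.21, from 398 and 327 CPM to 174 and 200 CPM, also in every setting. *MYOD1* (0.73 ± 0.21) and *MYOG* (0.77 ± 0.21) passed at adjusted p = 0.0434 and 0.0246, and *MYF6* fell by 1.01 ± 0.25 to 40.6 and 62.5 CPM. These 3 calls depended on single libraries and on the settings. The call was kept in 5 of 17 settings for *MYOD1*, in 6 for *MYOG* and in 8 for *MYF6*, and DESeq2 lost all 3. *VGLL2* rose by 1.31 ± 0.21 and lost the call only without E21-DZ. *MYOZ2* (0.44 ± 0.20), *MYL1* (0.08 ± 0.18), *TNNT2* (0.20 ± 0.18) and *ACTC1* (0.14 ± 0.17) did not pass.

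The named genes with the largest falls lay outside the sarcomere. *CD36*, a fatty acid transporter, was at 168 and 114 CPM at E21 and 15.6 and 19.5 CPM at E28 and fell by 3.07 ± 0.27 (adjusted p = 8.981e-11). *TECRL*, a reductase-like protein of striated muscle, was at 105 and 110 CPM at E21 and at 10.4 and 10.3 CPM at E28 (-3.53 ± 0.30). At E18 *CD36* was at 181 and 210 CPM and *TECRL* at 64.4 and 105 CPM, so both were low in the E28 libraries alone among those with members. Both genes kept the E28 call in every setting run.

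The neuropeptide gene *NPY* fell from 149.5 and 153 CPM to 27.1 and 21.8 CPM (-2.80 ± 0.27), and the neuronal tubulin gene *TUBB3* from 144 and 55.8 CPM to 3.13 and 5.16 CPM (-4.39 ± 0.38). In the other barcodes *NPY* was at 209 and 115 CPM at E21 and 30.6 and 53.7 CPM at E28, and *TUBB3* at 1162 and 360 CPM and then 32.5 and 186 CPM. Both genes were therefore lower at E28 outside the myocytes too, and the part of neuronal RNA in the fall was not tested. Of the 3 neural markers tested 2 fell and 1 rose. The 1 that rose was *DCX* (1.21 ± 0.28, edgeR adjusted p = 0.00671). That call was kept in 12 of 17 settings and lost, among others, without E21-DZ or E28-DZ and with DESeq2. The neural list summed to 402 and 181 CPM in E21 members and to 101 and 204 CPM in E28 members.

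Connective tissue genes led the rises at E28, with 5 of 7 tested higher and 0 lower, and 3 higher without any 1 of the E21 and E28 libraries. *COL1A1*, a chain of type I collagen, was at 21.0 and 6.70 CPM at E21 and 174 and 86.1 CPM at E28, and rose by 3.13 ± 0.31 (adjusted p = 1.491e-09). *OGN*, the matrix proteoglycan osteoglycin, was at 8.17, 10.0, 90.7 and 117 CPM in the same order and rose by 3.35 ± 0.34 (adjusted p = 3.212e-09). The other barcodes held 151.2 and 200 CPM of *COL1A1* at E21 and 814 and 779 CPM at E28, and 73.9 and 82.9 CPM of *OGN* at E21 and 932 and 1062 CPM at E28. The fibroblast list summed to 732 and 675 CPM in E21 members and to 1638 and 1663 CPM in E28 members. Over all settings the rise of *COL1A1* was 2.55 to 3.50, lowest with doublets removed, and the part of connective tissue RNA in it was not tested. Other rises held in every setting included *RHOD* (2.55 ± 0.37). Among them were also carboxypeptidase E *CPE* (24.5 and 34.6 to 134.4 and 165 CPM, 2.20 ± 0.28, and 48.8 and 37.0 to 90.5 and 85.9 CPM in the other barcodes) and asparagine synthetase *ASNS* (21.0 and 20.1 to 91.7 and 104 CPM, 2.12 ± 0.29). *ASNS* in the other barcodes was at 15.3 and 14.6 CPM at E21 and at 15.7 and 17.0 CPM at E28.

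**Figure D3:**
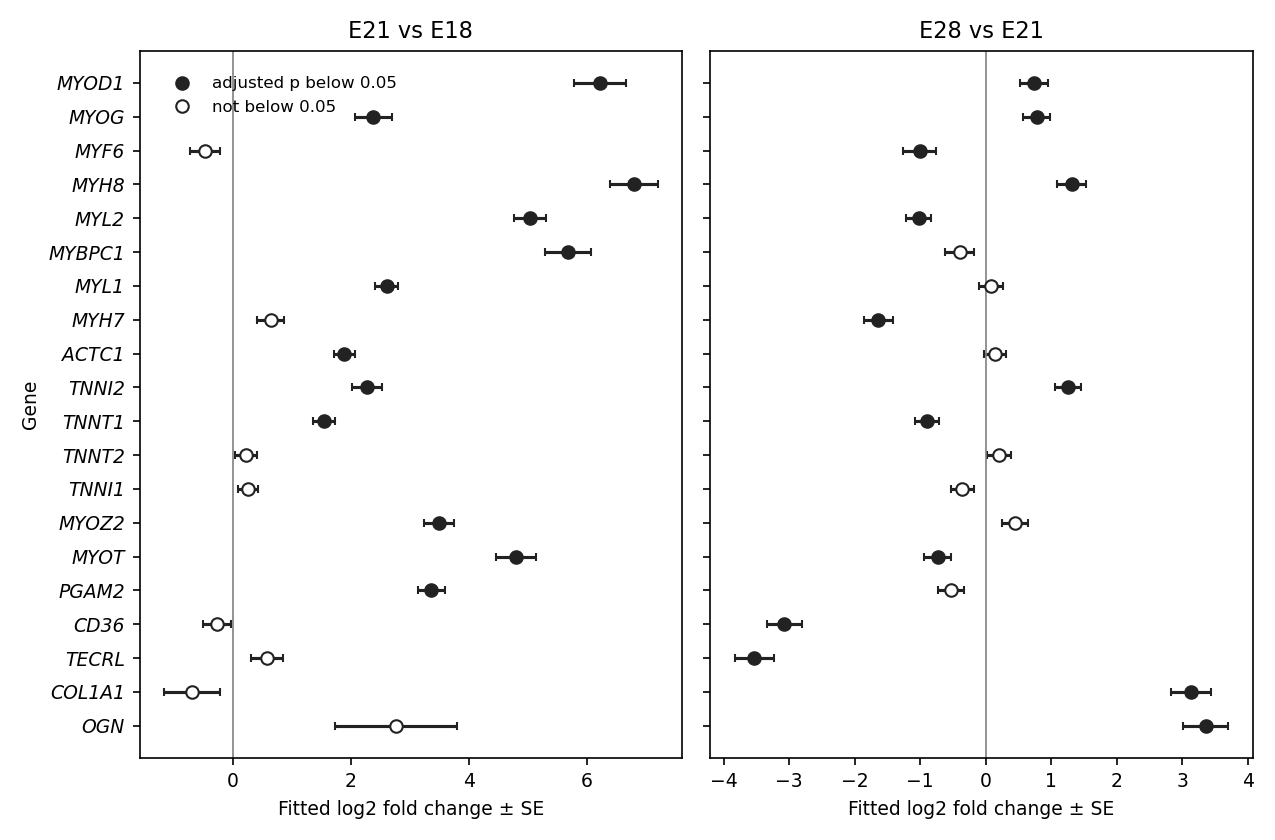
Fitted log2 fold change with its SE (x axis) of genes described in the text (y axis) in the myocytes, E21 against E18 on the left and E28 against E21 on the right. Filled points passed an adjusted p of 0.05 in edgeR's quasi-likelihood test. The SE was derived from the F value of that test and can be smaller than the counting error where few UMIs were counted. Most sarcomere genes are filled and to the right of 0 on the left panel, while on the right panel *TNNI2* and *MYH8* lie above 0 and *MYH7*, *MYL2* and *TNNT1* below.

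Between the breeds 45 of 7491 genes (0.601%) passed, 35 (0.467%) higher and 10 (0.133%) lower in DZ, with stage as a block. Without TMM scaling the split was 12 higher and 6 lower, and without E21-DZ the number was 13. At 0.601% of all genes, few or no calls would be expected in lists as short as the muscle lists. Their counts therefore do not set muscle genes apart. In the myosin, thin-filament, fusion, excitation-contraction, synapse and myogenic transcription factor lists 0 genes passed in either direction in edgeR, where 503 of all 7491 genes had an unadjusted p under 0.05. DESeq2 called 7 genes in all. Among 22 Z-disc genes only *XIRP2* did (0.84 ± 0.21, adjusted p = 0.0391), and its call was lost in 11 of 16 settings. *MYOD1* differed by -0.47 ± 0.21 (adjusted p = 0.626) and *TNNI2* by 0.62 ± 0.18 (adjusted p = 0.140), so differences of that size between breeds were not detectable with 3 pools each.

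*ANKRD1*, a stretch-responsive ankyrin repeat protein of the sarcomere and nucleus, stood out. It was at 18.4 CPM in E18-ZZ against 44.1 in E18-DZ, 81.7 in E21-ZZ against 398 in E21-DZ, and 84.4 in E28-ZZ against 479 in E28-DZ. It was higher in DZ at all 3 stages, by 2.37 ± 0.22 on the log2 scale (edgeR adjusted p = 7.785e-10), and kept the call in all 16 settings. In the other barcodes it was at 0.35 to 9.09 CPM, with E18-ZZ above E18-DZ and both later DZ libraries above ZZ.

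Immediate-early genes were higher in DZ in 6 of 12 genes and lower in 0 (median 1.12), and the 6 became 3 without E28-ZZ or without E28-DZ. *FOSB* was at 6.14 CPM in E18-ZZ against 44.1 in E18-DZ, 133.1 in E21-ZZ against 385 in E21-DZ, and 84.4 in E28-ZZ against 260 in E28-DZ (1.73 ± 0.21, adjusted p = 4.409e-07). *ATF3*, a stress-induced factor, was at 24.5 against 80.0, 17.5 against 136 and 2.08 against 50.5 CPM (3.003 ± 0.32, adjusted p = 2.069e-08), and its call was lost without E21-DZ. *KLF4* was at 0 against 11.0, 11.7 against 55.8 and 10.4 against 81.5 CPM (2.75 ± 0.34). These 3 genes were named for their difference between the breeds. That the DZ library was above the ZZ library of its stage in each pair is therefore a description and no further support. The other barcodes of the same libraries had the same order, with *FOSB* at 11.3 against 41.3, 49.4 against 246 and 57.4 against 334 CPM, and the part of what the whole library shared was not tested. *EGR1* passed (0.88 ± 0.18, adjusted p = 0.00716) but lost the call in 12 of 16 settings, among them without E18-ZZ, E18-DZ, E28-ZZ or E28-DZ.

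**Figure D4:**
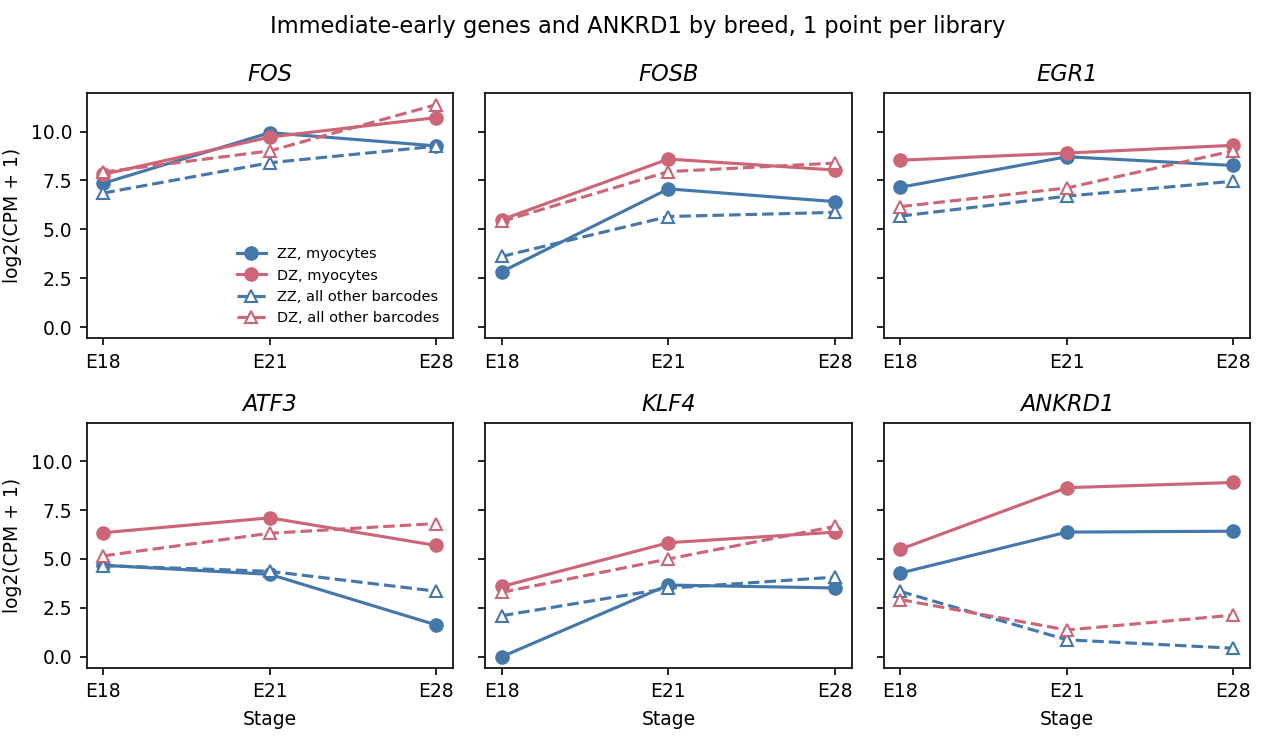
Level of 5 immediate-early genes and *ANKRD1* (y axis, log2 of CPM + 1) at E18, E21 and E28 (x axis) by breed, in the myocytes (filled circles) and in all other barcodes (open triangles), 1 point per library. DZ lies above ZZ at every stage for *FOSB*, *EGR1*, *ATF3*, *KLF4* and *ANKRD1* in the myocytes, whereas *FOS* in E21-ZZ lies above E21-DZ.

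Genes lower in DZ were led by the serpin *SERPINB6* (-2.22) and the chemokine *CXCL12* (-2.19). *CXCL12* was at 132 CPM in E18-ZZ against 27.6 in E18-DZ, 24.5 in E21-ZZ against 18.97 in E21-DZ, and 147 in E28-ZZ against 16.6 in E28-DZ. The E21 pools thus barely differed, and the call was lost without E28-ZZ or E28-DZ. *SERPINB6* was at 15.3 against 22.1, 54.9 against 14.5 and 115 against 12.6 CPM, so that at E18 the order was the opposite. Its call was lost without E21-DZ, E28-ZZ or E28-DZ.

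Members of a library differed among themselves in sarcomere genes other than the *MYH3* they were split on. The members of the 5 libraries with at least 40 deep enough members were thinned to 3000 UMIs each and split at the library's median *MYH3* share, as a description. *MYH8* was at 1603 CPM in the MYH3-high and 189 CPM in the MYH3-low group (mean over 5 libraries), *MYBPC1* at 548 and 50.4 CPM, *MYL2* at 1161 and 202 CPM, and *MYLPF* at 22163 and 4951 CPM. *MYL2* and *MYLPF* were higher in 5 of 5 libraries and *MYH8* and *MYBPC1* in 4. *TNNT2* differed less, with 2120 and 1183 CPM. Of 9 myosin and thick-filament genes 7 were higher in the MYH3-high group of every library, as were 12 of 14 thin-filament and 12 of 17 Z-disc genes, beside 138 of all 1229 genes (11.2%).

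*MYOG* and *CDKN1C* had the opposite order. Of 13 myogenic transcription factors 2 were lower and 1 was higher in the MYH3-high group of every library, beside 241 of all 1229 genes (19.6%) that were lower, and the share of the list was not above that of all genes. *MYOG* was at 122 CPM in the MYH3-high and 304 CPM in the MYH3-low group and lower in 5 of 5 libraries, *MYOD1* at 250 and 453 CPM and lower in 4, and the CDK inhibitor *CDKN1C*, p57, at 986 and 2169 CPM and lower in 5. *NPM1*, nucleophosmin of the nucleolus, was at 556 and 1267 CPM and lower in 5. *MEF2C* was at 1524 CPM in the MYH3-high and 851 CPM in the MYH3-low group and higher in 5. *MYF5* hardly differed, with 127 and 138 CPM. Collagen RNA moved with the split as well, with *COL3A1* at 68.4 CPM in the MYH3-high and 234 CPM in the MYH3-low group and lower in 4 of 5 libraries, and its part was not tested. The median depth before thinning was 6837 to 11001 UMIs in the MYH3-high and 6105 to 8062 UMIs in the MYH3-low groups.

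**Figure D5:**
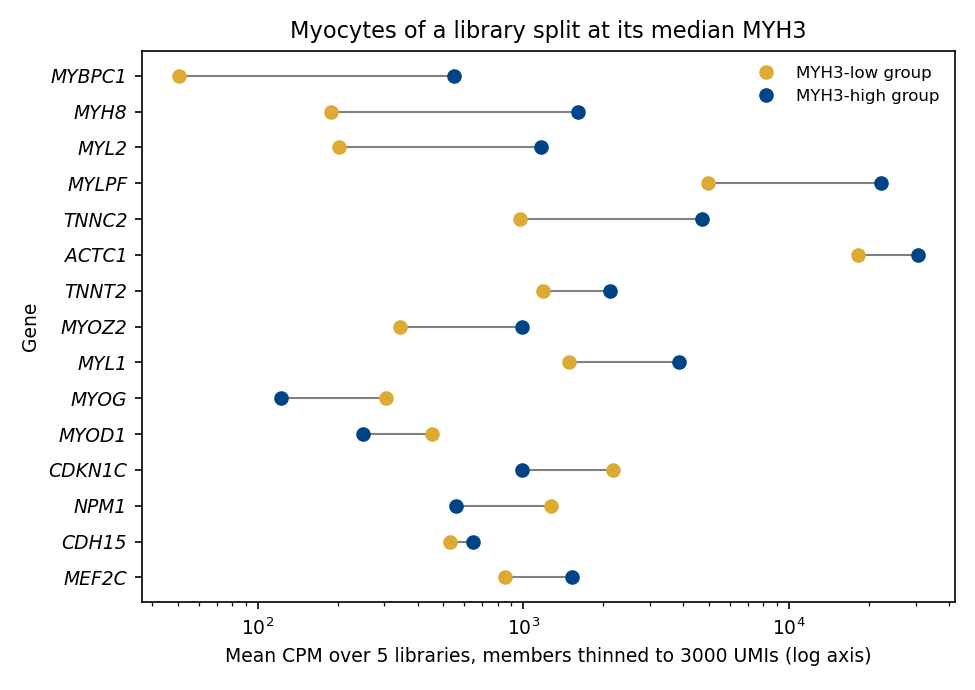
Mean level over 5 libraries (x axis, CPM, log axis) of 15 genes (y axis) in the MYH3-low and MYH3-high groups of members, each member thinned to 3000 UMIs. The sarcomere genes lie higher in the MYH3-high group, and *MYOG*, *MYOD1*, *CDKN1C* and *NPM1* lie higher in the MYH3-low group.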

How the data were processed

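Per the labels and the study's methods, the authors prepared 10x Genomics 3' single-cell libraries and ran Cell Ranger (3.1.0 for E16, 3.0.2 for the other 6 libraries) on the pig genome Sscrofa11 with Ensembl annotation. The deposited values are UMI counts per gene and barcode, neither normalized nor corrected. Of 21301 genes 6455 had no name in the files, and 680 of these were named through the reference table. Genes not matched by name (*MYMX*, *IGF2*, *MKI67*, *TTN* and *RYR1* among them) were not analysed here.

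Barcodes were filtered with the limits of the study's methods, and doublets were kept, except in an alternative that removed the highest Scrublet scores at 0.8% per 1000 barcodes. Members' counts were summed per library (at least 20 members) and tested with edgeR 4.0.16 (TMM, its default filter on low counts, Benjamini-Hochberg at 0.05, R 4.3.3). *MYH3*, *MYMK* and *MYBPC3* were not tested. CPM are per 1000000 of the members' summed UMIs, which were 325958 in E18-ZZ, 362442 in E18-DZ and 856438 to 1743222 in the later libraries. Levels are not per gene length and were compared within a gene only. Simulated data for E28 against E21 gave 96.8% of log2 changes of 2, 38.8% of changes of 1 and 3 of 6920 unchanged genes as calls. The simulation gave every gene the same spread between pools (dispersion 0.0209) and no breed effect. Its shares therefore need not hold for the real genes. Named genes were the markers, a fixed set of muscle genes, the largest changes at 50 CPM or more, up to 4 genes per list and the leading genes. The lists and members were chosen with earlier results of these data known. DESeq2 1.42.0 and the settings described at the end were alternatives. Promoters are RefSeq's, an annotation other than the one used for counting.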

Additional observations from a re-analysis of the deposited data

Results flagged for a closer look

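On library totals, without TMM scaling, each of the following 6 genes moved between E21 and E28 in opposite directions in the breeds. Each move was beyond its exact counting interval. Each rests on 1 library per stage and breed, and the difference between the breeds was not tested. *MYBPC1* had a log2 ratio of -0.91 in ZZ and 0.38 in DZ. *CACNA1S* had -0.68 in ZZ and 0.49 in DZ, the acetylcholine receptor gene *CHRNA1* -0.27 and 0.70, and the troponin C gene *TNNC1* -0.36 and 0.19. The move of *TNNC1* in DZ was no rise once the TMM factors of E21-DZ (0.872) and E28-DZ (1.005) were applied. Those factors lower the DZ ratio of every gene by the same amount. They also shrink the DZ rises of *MYBPC1* (312 and 788 UMIs) and *CACNA1S* (57 and 156 UMIs). Moves scaled with the factors were not set against counting intervals, so opposite directions beyond counting error are shown on library totals only. *EGR1* had -0.45 in ZZ and 0.40 in DZ. *CDKN1C* went the other way, with 0.90 in ZZ and -0.17 in DZ. None of the 6 genes passed the pooled test between E28 and E21.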

How the results depend on the processing

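The number of members moved from 599 to 399 at a mitochondrial limit of 5%. The difference in share between late and early libraries kept the exact permutation p of 0.0286 in each setting that kept all 8 libraries, with 0.749 to 1.18 percentage points. It was no longer below 0.05 with a library left out (0.764 to 1.01) or with the 3.0.2 libraries alone (0.675), where no smaller p was possible.

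The 868 calls of E21 against E18 became 333 with DESeq2, 341 with members thinned to 3000 UMIs, 346 with at least 50 members per library, and 290 to 956 with a library left out. The 261 calls of E28 against E21 became 48 with DESeq2, 141 without the breed term, 79 with thinned members, 131 with the E21 and E28 libraries alone, and 39 to 226 with a library left out. The 45 calls of DZ against ZZ became 7 with DESeq2, 18 without TMM scaling, 21 with doublets removed, 20 with the stricter rule, 13 with thinned members, 21 with the E21 and E28 libraries alone, and 13 to 36 with a library left out. Leaving out a library leaves a stage with 1 sample, which is then assumed to vary like the others. Of the named genes called, 51 of 83 kept the call in every setting run for E21 against E18, 15 of 52 for E28 against E21 and 3 of 14 for the breeds. Between E21 and E18 the limit of 5% could not be run, since E18-ZZ was left with 1 member and E18-DZ with 19.

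Among named genes that passed in the reported fit or in the alternative, the sign turned in *KLF2* and in hemoglobin genes. Genes that passed in neither changed sign too. With a library left out, *KLF2* was at -0.045 (without E21-DZ) to 2.23 on the log2 scale for E28 against E21. *HBE1* was at -0.78 (without E28-DZ) to 3.63 in that comparison, at -0.98 there with doublets removed, and at -0.91 (without E28-DZ) to 2.05 between breeds. For E21 against E18 *HBE1* was at -3.55 to 0.43, *HBZ* at -3.09 to 0.61 and *HBB* at -8.17 to 0.54. The upper values of these 3 genes were those without E18-ZZ, which is also the setting of at least 50 members. *HBZ* was at 1.20 between breeds at the limit of 5%. The causes were not tested.

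No paired analysis was possible because the labels give no replicate numbers that groups share, and the breed term is the only pairing of stages. The 325958 and 362442 UMIs of the E18 members limit the precision there, and a gene with fewer than 3 UMIs in each library was below the floor.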

Other observations

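Several genes described for muscle were even across all 6 libraries with myocytes. *FNDC5*, the precursor of irisin, was at 331 to 423 CPM and *ERBB3*, a neuregulin receptor, at 876 to 1236 CPM, but *ERBB3* was also at 685 to 1109 CPM in the other barcodes, whereas *FNDC5* was at 6.78 to 53.2 CPM there. *MYL9*, a light chain of smooth muscle and non-muscle myosin, was at 564 and 728 CPM at E18, 229 and 224 CPM at E21 and 196 and 219 CPM at E28. It was highest in the E18 myocytes and fell by 1.28 ± 0.21 at E21 (edgeR adjusted p = 1.535e-05), a call lost without E18-DZ. In the other barcodes *MYL9* went from 189 and 180 CPM at E18 to 57.6 and 73.8 CPM at E21. In committed cells it went from 145 and 148 CPM to 69.4 and 70.5 CPM. *ANO3*, a member of the anoctamin family, was at 64.4 and 152 CPM at E18, 2.34 and 18.97 CPM at E21 and 0 and 0.57 CPM at E28 (ZZ first), and fell by 3.13 ± 0.41 between E18 and E21 in every setting run. The globin gene *HBE1* was at 546 CPM in E18-ZZ and 757 CPM in E28-DZ and at 66.7 to 138 CPM in the 4 other libraries with members.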
